A study of Mus musculus with 4 samples.

Results

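The Hox genes are the 39 genes whose symbol is Hoxa, Hoxb, Hoxc or Hoxd followed by a number, out of 24015 genes with a read count. They were followed in mouse hematopoietic stem and progenitor cells purified by sorting (HSPC), 2 control libraries against 2 caNIK libraries. In caNIK mice, the Rosa-loxp-STOP-loxp-NIK allele, which carries a form of the kinase NIK that TRAF3 cannot target, was opened by the Vav-iCre transgene, whose promoter is active in blood cells. The labels do not state which alleles the control mice carried, nor the tissue, age, sex, number or pooling of the mice, and nothing says that replicates came from separate animals. P-values therefore measure the spread between these libraries, which need not be the spread between animals. It was wider than the counting of reads alone gives, at a chi-square per degree of freedom of 23.5 for the control pair and 42.4 for the caNIK pair. Sex-linked transcripts, given below, also differed between the control libraries.

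HOX proteins are transcription factors that bind DNA through a homeodomain, mostly together with partner homeodomain proteins of the PBX and MEIS families. Their genes lie side by side in clusters, and the number in the symbol follows the place of a gene in its cluster, from the anterior (3′) to the posterior (5′) end. In blood, genes of clusters A and B are the ones mainly expressed in stem and progenitor cells, their transcripts fall as cells mature, and Hoxa9 together with its partner Meis1 is known for maintaining immature and leukemic cells. MLL (Kmt2a) complexes keep Hox genes active, and Polycomb complexes keep them silent.

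Libraries held 18574452 to 23162766 counts, of which 2379 to 4465 fell on Hox genes. Map3k14, the gene of NIK, rose from 582 and 588 counts in the control libraries to 3305 and 3989 in the caNIK libraries (log2 fold change 2.74 ± 0.17, SE; edgeR adjusted p = 0.00023), the direction the labels imply. Marker lists of other cells also differed between the groups or between libraries. Among all 14191 genes tested, 13.8% were higher and 8.21% lower at an edgeR adjusted p under 0.05. In lists this short, a single member past that threshold cannot be told from these shares. Summed markers of stem and multipotent progenitors lay at 1937 and 1723 CPM (reads per 1000000 after scaling of the libraries) in control and 922 and 697 in caNIK, with 3 of 8 lower and 1 higher. Kit, the receptor that marks early progenitors, had 10387 to 14385 reads in every library. Summed mast cell markers went from 36.3 and 60.3 to 1237 and 608 CPM (4 of 5 higher), erythroid markers from 277 and 561 to 1210 and 1888 CPM (3 of 6 higher), and granulocyte-monocyte markers from 1313 and 3167 to 274 and 483 CPM (3 of 6 lower, 1 higher). B cell markers lay at 32.7 and 22.1 CPM in control and 13.1 and 5.93 in caNIK (2 of 4 lower), and megakaryocyte markers at 78 and 157 CPM in control and 225 and 203 in caNIK (1 of 5 higher, 1 lower). T cell markers lay at 34.4 to 89 CPM and stromal and endothelial markers at 93.9 to 251 CPM over the 4 libraries, and neither list had a member past the threshold in edgeR or DESeq2 (at an unadjusted p under 0.05, 0 and 1). The female-specific transcript Xist had 1970 and 902 CPM in control replicates 1 and 2, and 1189 and 1160 CPM in the caNIK libraries. The Y-linked genes Eif2s3y, Uty, Ddx3y and Kdm5d also had reads in every library, and each was lower in control replicate 1 than in replicate 2, Eif2s3y at 11.2 against 37.7 CPM (54.6 and 39.9 in caNIK) and Uty at 5.34 against 17.7 CPM (21.2 and 13.2 in caNIK). In bulk RNA, fewer cells of a type and less RNA per cell cannot be told apart, and the part of these shifts in the results that follow was not tested.

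Control HSPC expressed a Hox A program with a smaller Hox B component, and almost no reads of clusters C and D. Cluster A gave 91.3 ± 0.898% of all Hox reads in control (SD, n = 2), cluster B 8.47 ± 1.02% and cluster C 0.202 ± 0.126%, and cluster D had no read. In caNIK HSPC these shares were 87 ± 2.40%, 9.64 ± 2.27%, 3.12 ± 0.0102% and 0.208 ± 0.116%. Hoxa9 alone made up 55.5 ± 2.14% of the Hox reads in control and 55.8 ± 4.96% in caNIK. Of the 39 genes, 9 had no read in any library: Hoxa13, Hoxc11, Hoxc12, Hoxc13, Hoxd8, Hoxd9, Hoxd10, Hoxd11 and Hoxd12, all from the posterior end of their clusters except Hoxd8.

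**Figure D1:**
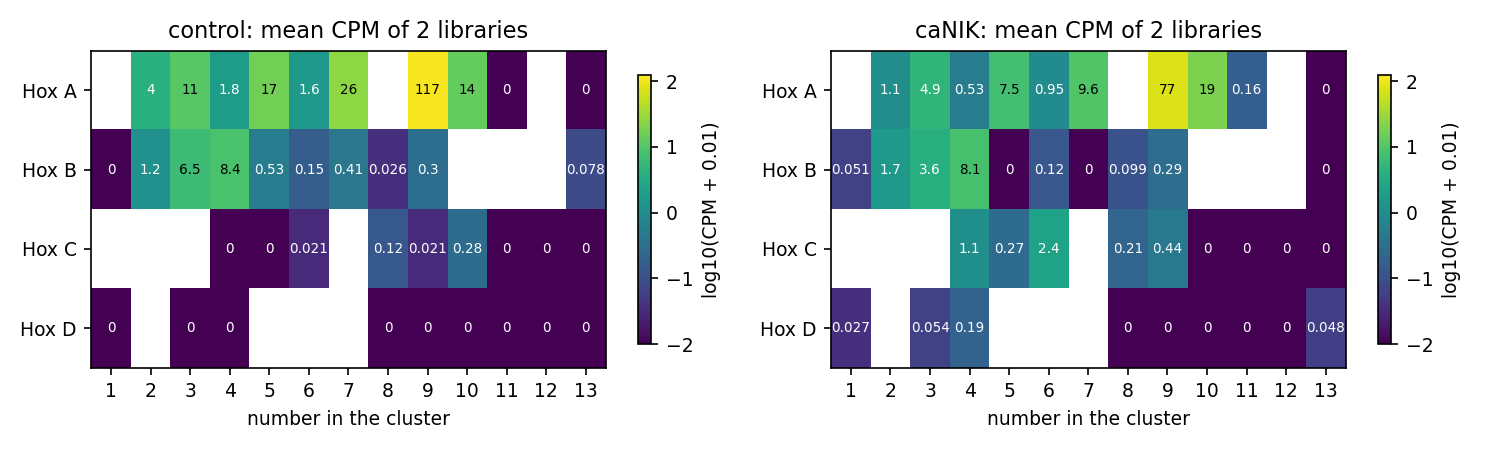
Mean level of each Hox gene in control (left) and caNIK (right), with the clusters as rows and the number in the cluster as columns. Colour gives log10 of CPM plus 0.01, the printed value is the mean CPM of 2 libraries, and white cells have no gene or none shown; reads lie mostly in Hox A 2 to 10 and Hox B 2 to 4, and Hoxc4 and Hoxc6 stand at 1.07 and 2.40 in caNIK against 0 and 0.0213 in control.

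Compared per kilobase of exon (CPM per kb), the order of the genes in control was Hoxa9 (21 ± 3.83), Hoxa5 (9.06 ± 0.851), Hoxa7 (8.87 ± 0.586), Hoxa10 (4.16 ± 1.09) and Hoxb4 (3.29 ± 0.031). Hoxa5 and Hoxa7 overlapped between libraries there, and Hoxa10 in its lower library came close to Hoxb4 in its higher one, at 3.39 and 3.31. In caNIK the order was Hoxa9 (13.9 ± 2.42), Hoxa10 (5.90 ± 0.471), Hoxa5 (3.99 ± 1.36), Hoxa7 (3.33 ± 2.03) and Hoxb4 (3.16 ± 1.07), of which the last 3 overlapped. Hoxa9 thus held the first place in both groups, and Hoxa10 stood at place 4 in control and 2 in caNIK.

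The 5 starts printed here belong to genes that differ in what they did. Hoxa5 was the Hox A gene that fell past the threshold, Hoxa9 the most abundant, Hoxa10 the tested Hox A gene with a higher mean in caNIK, and Hoxc4 a gene without a control read. Each sequence runs from 250 bases before to 50 after a start in RefSeq (GRCm38.p6), 5′ to 3′ on the gene's strand, with CpG dinucleotides in capitals; these starts need not be the ones used in HSPC.
Hoxa5 (chr6:52204538-52204837, minus strand): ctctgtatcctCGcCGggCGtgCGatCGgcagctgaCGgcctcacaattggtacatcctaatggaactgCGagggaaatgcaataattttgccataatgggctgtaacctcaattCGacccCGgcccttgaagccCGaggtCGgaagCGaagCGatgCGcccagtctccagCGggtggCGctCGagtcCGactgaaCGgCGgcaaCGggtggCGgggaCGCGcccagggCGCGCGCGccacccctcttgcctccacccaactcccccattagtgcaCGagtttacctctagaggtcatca
Hoxa9 (chr6:52227321-52227620, minus strand): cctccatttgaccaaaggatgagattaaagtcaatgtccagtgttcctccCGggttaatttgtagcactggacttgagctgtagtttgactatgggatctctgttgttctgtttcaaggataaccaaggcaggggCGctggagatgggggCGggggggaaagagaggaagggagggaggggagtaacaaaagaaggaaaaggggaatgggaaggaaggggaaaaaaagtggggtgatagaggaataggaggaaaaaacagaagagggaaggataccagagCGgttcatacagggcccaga
Hoxa10, outer start (chr6:52240805-52241104, minus strand): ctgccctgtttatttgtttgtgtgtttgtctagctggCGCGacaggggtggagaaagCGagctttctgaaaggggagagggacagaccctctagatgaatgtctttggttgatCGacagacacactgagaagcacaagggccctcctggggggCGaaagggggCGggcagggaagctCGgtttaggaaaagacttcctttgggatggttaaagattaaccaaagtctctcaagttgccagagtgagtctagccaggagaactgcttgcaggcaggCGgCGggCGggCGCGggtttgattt
Hoxa10, inner start (chr6:52234890-52235189, minus strand): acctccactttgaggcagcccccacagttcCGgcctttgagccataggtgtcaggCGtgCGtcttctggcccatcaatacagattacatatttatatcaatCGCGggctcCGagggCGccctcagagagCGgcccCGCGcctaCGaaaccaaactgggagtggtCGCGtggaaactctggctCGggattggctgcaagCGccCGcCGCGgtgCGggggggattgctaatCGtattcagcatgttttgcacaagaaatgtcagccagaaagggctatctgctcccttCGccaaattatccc
Hoxc4 (chr15:103034145-103034444, plus strand): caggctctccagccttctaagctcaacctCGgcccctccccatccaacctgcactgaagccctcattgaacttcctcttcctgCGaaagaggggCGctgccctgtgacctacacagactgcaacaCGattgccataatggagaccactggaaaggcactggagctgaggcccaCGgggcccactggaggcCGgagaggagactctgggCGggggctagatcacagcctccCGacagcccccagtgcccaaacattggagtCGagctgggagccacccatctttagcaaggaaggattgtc
CpG dinucleotides numbered 29 at Hoxa5, 4 at Hoxa9, 12 and 21 at the outer and inner Hoxa10 starts and 9 at Hoxc4. Over the 24 Hox promoters in the table, which belong to 22 of the 39 genes, the median was 14.5 (4 to 45), against 7 over all 32851 promoters. Motifs were read on both strands. The NF-kB consensus occurred in 0 of the 24 and in 4.51% of all promoters. At that share, a set of 24 may well hold none. No start of Hoxc6, the Hox gene called higher, was among the 24, nor any of the tested genes Hoxa4, Hoxb2 and Hoxb3, so these were not searched. TATAAA occurred in 4 of the 24 (16.7%; 13.6% of all), which belong to Hoxa10 (inner start), Hoxb8, Hoxd4 and Hoxd13. On the gene's own strand it occurred in 1, of Hoxd13 (4.17%; 8.32% of all), so the inner Hoxa10 sequence holds it only as its reverse complement. The homeodomain core TAATTA, which reads the same on both strands, occurred in 2, both of Hoxd11 (8.33%; 5.29% of all). A match or its lack describes these letters in this window only.

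The Hox A genes from Hoxa2 to Hoxa9 were lower in both caNIK libraries than in either control library, and Hoxa5 was the only Hox gene called lower in edgeR's test. Of the 39 Hox genes, 12 had enough reads for the test, 8 of cluster A, 3 of cluster B and 1 of cluster C. The other 27 were too low, 9 of them without any read. At an adjusted p under 0.05, 1 of the 12 was lower and 1 higher, beside 8.21% lower and 13.8% higher among all 14191 genes tested. The median log2 fold change over all tested genes was 0.00.

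Hoxa5, a central gene of the cluster, had 350 and 373 reads in the control libraries and 173 and 118 in the caNIK libraries. This was 18.1 and 15.9 CPM against 9.28 and 5.69 CPM, so that both caNIK libraries lay below both controls. Its log2 fold change was -1.19 ± 0.33 (SE; edgeR adjusted p = 0.047), a level 2.27-fold lower. The call was lost without control replicate 1 (adjusted p = 0.12), without caNIK replicate 2 (adjusted p = 0.11) and with library totals in place of scaling factors (adjusted p = 0.052).

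Hoxa9, which drives self-renewal of immature blood cells when overexpressed, had 132 and 102 CPM in control and 87 and 67.9 CPM in caNIK. The groups did not overlap, but the log2 fold change of -0.59 ± 0.20 did not pass (edgeR adjusted p = 0.082). Hoxa7, its neighbour and a gene often co-expressed with it in leukemia, stood at 26.7 and 24.3 CPM in control and 13.7 and 5.44 CPM in caNIK (-1.42 ± 0.43; adjusted p = 0.058). Both caNIK libraries again lay below both controls, and caNIK replicate 2 was the lowest in both genes.

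The anterior genes of the cluster showed large differences on fewer reads. Hoxa2 had 91 and 78 reads in control and 28 and 13 in caNIK (log2 fold change -1.92 ± 0.63; edgeR adjusted p = 0.075). Hoxa3 had 218 and 251 against 138 and 48 (-1.18 ± 0.55; adjusted p = 0.18), and Hoxa4 had 42 and 34 against 8 and 13 (-1.76 ± 0.68; adjusted p = 0.12). The groups of each of these genes did not overlap, and none passed. Hoxa4 met the filter on low counts in both control libraries but in 1 caNIK library, so it was tested through the group where it is higher. Hoxa6, with 24 and 47 reads in control and 22 and 15 in caNIK, had a log2 fold change of -0.77 ± 0.67 (adjusted p = 0.46) and groups that were close to overlap, at 1.24 CPM in control replicate 1 and 1.18 CPM in caNIK replicate 1.

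**Figure D2:**
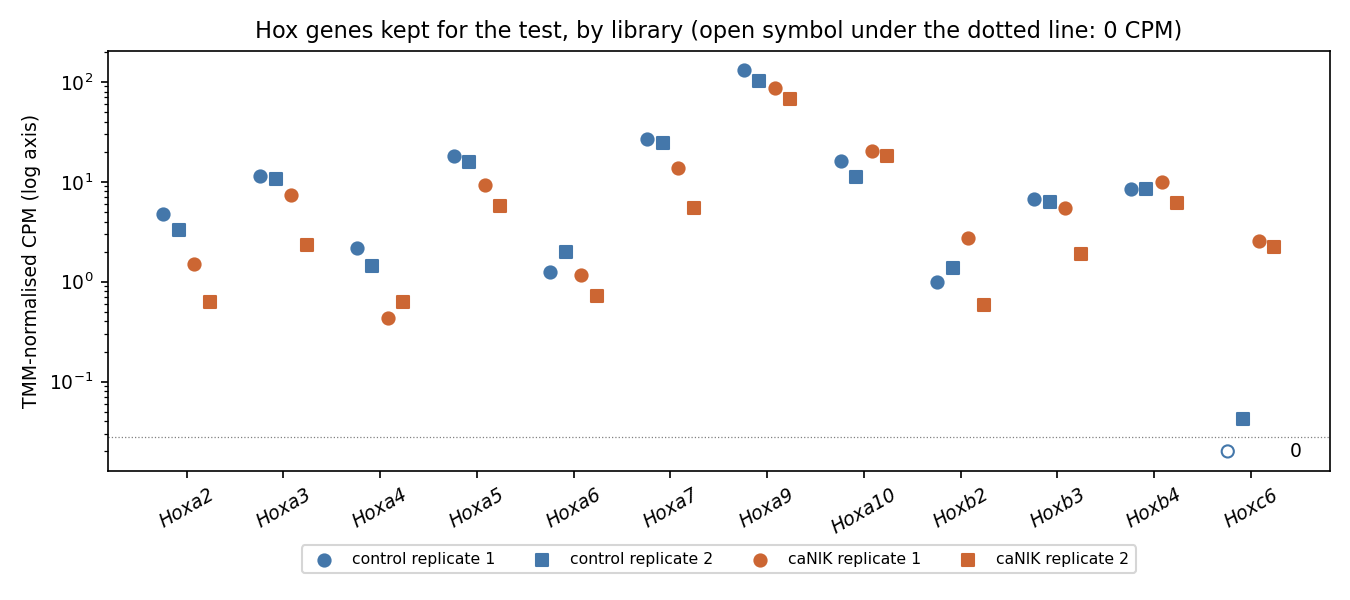
Level of the 12 tested Hox genes in each library, as CPM on a log axis, with circles for replicate 1 and squares for replicate 2 of control (blue) and caNIK (orange). In Hoxa2 to Hoxa9 both orange symbols lie below both blue ones, in Hoxa10 and Hoxc6 above them, and in Hoxb2 and Hoxb4 the groups overlap.

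Without overlap of CPM between the groups, 8 of the 12 tested Hox genes were lower and 2 higher in caNIK, beside 31.6% lower and 33.2% higher among all genes tested. The 8 were the 7 Hox A genes from Hoxa2 to Hoxa9 and Hoxb3. DESeq2 called 4 Hox genes lower, Hoxa2 (adjusted p = 0.0496), Hoxa5, Hoxa7 (adjusted p = 0.010) and Hoxa9 (adjusted p = 0.0499), and 1 higher, beside 10.4% lower and 16.4% higher among all genes it tested. Without caNIK replicate 1, Hoxa3 stood at -2.24 and Hoxa7 at -2.22 on the log2 scale, beside -1.18 and -1.42 over all libraries. The median log2 fold change of the tested Hox A genes was -1.55 without caNIK replicate 1 and -0.74 without caNIK replicate 2. In 11 of the 12 tested Hox genes caNIK replicate 1 lay above replicate 2, the exception being Hoxa4. Summed stem cell and B cell markers were lower in caNIK and lay in the same order, at 922 and 697 and at 13.1 and 5.93 CPM. Sums of mast, NK, T cell, megakaryocyte, and stromal and endothelial markers also lay in that order, and none was lower in both caNIK libraries. Granulocyte-monocyte markers were lower in caNIK but lay in the other order, at 274 and 483 CPM, as did erythroid markers, at 1210 and 1888 CPM. The part of any of these lists in the Hox A difference was not tested.

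Toward the posterior end of cluster A, Hoxa10, which acts in myeloid and megakaryocyte progenitors, differed from its neighbours in direction. It had 16.1 and 11.1 CPM in control and 20.4 and 18.2 CPM in caNIK, so that both caNIK libraries lay above both controls. Its log2 fold change of 0.51 ± 0.28 did not pass (edgeR adjusted p = 0.25), and ranged from 0.26 to 0.78 over the 10 alternatives. Summed megakaryocyte markers were also higher in both caNIK libraries, as given above, but the members went both ways. Log2 fold changes were 1.40 for Itga2b, 1.30 for Pf4, 0.17 for Gp1bb, -0.82 for Vwf and -1.37 for Gp9. Summed granulocyte-monocyte markers were lower in both caNIK libraries. The part of either list in the Hoxa10 level was not tested. Hoxa11 had 6 reads, all in caNIK replicate 1, and Hoxa13 had none.

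Reads of a gene divided by those of Hoxa9 in the same library do not depend on how libraries were scaled. Per 100 Hoxa9 reads there were 12.2 and 10.9 Hoxa10 reads in control and 23.4 and 26.8 in caNIK. Hoxa7 reads numbered 20.2 and 23.9 in control and 15.7 and 8.01 in caNIK, Hoxa5 reads 13.7 and 15.6 against 10.7 and 8.37, Hoxa2 reads 3.57 and 3.26 against 1.73 and 0.922, and Hoxa4 reads 1.65 and 1.42 against 0.493 and 0.922. For Hoxa3 and Hoxa6, the groups were 8.56 and 10.5 against 8.51 and 3.40, and 0.942 and 1.97 against 1.36 and 1.06. The relation to Hoxa9 was thus higher in both caNIK libraries for Hoxa10, lower in both for Hoxa2, Hoxa3, Hoxa4, Hoxa5 and Hoxa7, and overlapping for Hoxa6. With 2 libraries against 2, an exact two-sided permutation test cannot give a p below 0.333 for any of these 7 ratios.

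**Figure D3:**
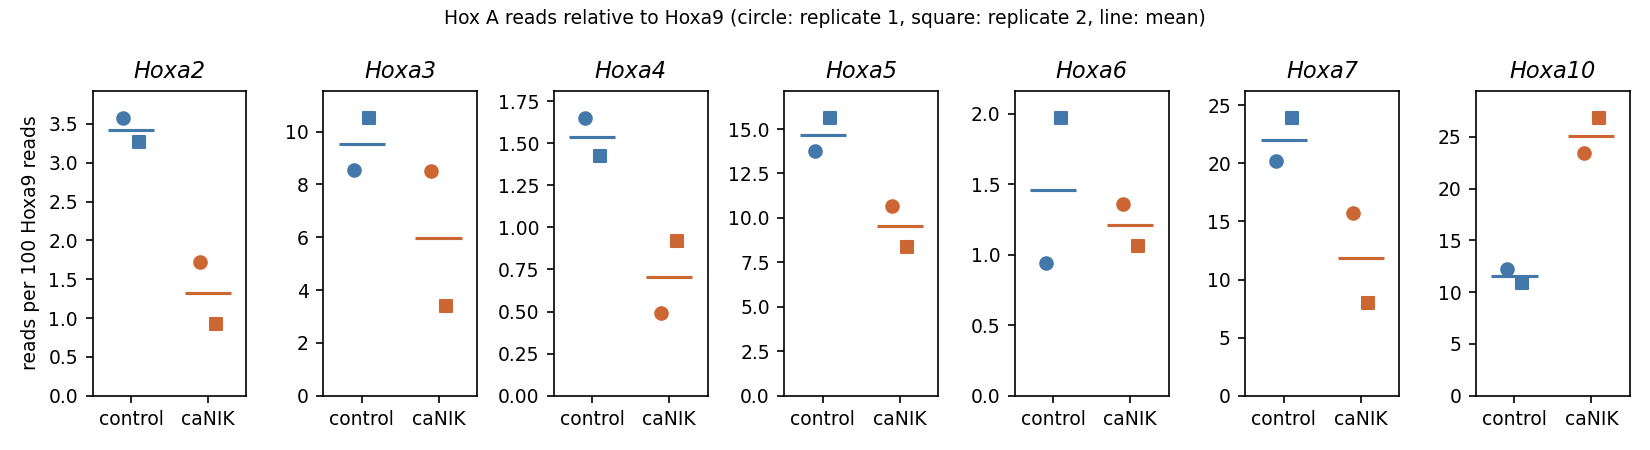
Reads of 7 Hox A genes per 100 Hoxa9 reads in each library, with circles for replicate 1, squares for replicate 2 and lines for the group means; each panel has its own axis from 0. Hoxa10 lies at 10.9 to 12.2 in control and 23.4 to 26.8 in caNIK, while Hoxa2 lies at 3.26 to 3.57 in control and 0.922 to 1.73 in caNIK.

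By position, the difference was larger at the anterior than at the posterior end of cluster A. Summed levels of Hoxa2 to Hoxa4 went from 16.8 ± 1.94 to 6.45 ± 4.08 CPM (-61.7%), of Hoxa5 to Hoxa7 from 44.1 ± 2.75 to 18 ± 8.69 CPM (-59.2%), and of Hoxa9 to Hoxa13 from 131 ± 25 to 97 ± 15.3 CPM (-25.7%). Medians of the log2 fold change were -1.76 over the 3 tested anterior genes, -1.19 over the 3 central and -0.04 over the 2 posterior ones. Across the 8 tested genes of the cluster, log2 fold change and gene number correlated at a Spearman rho of 0.76 and a Pearson r of 0.84, which describes 8 neighbours measured in the same 4 libraries, and the rho ranged from 0.71 to 0.83 over the alternatives. Over all clusters together, the medians were -1.01 for the 6 tested anterior genes (numbers 1 to 4), -0.98 for the 4 central (5 to 8) and -0.04 for the 2 posterior (9 to 13). Over the same 2 posterior genes, leaving out control replicate 1 or 2 gave a median of 0.18 or -0.25, and leaving out caNIK replicate 1 or 2 gave -0.18 or 0.06, so its sign depended on the libraries.

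**Figure D4:**
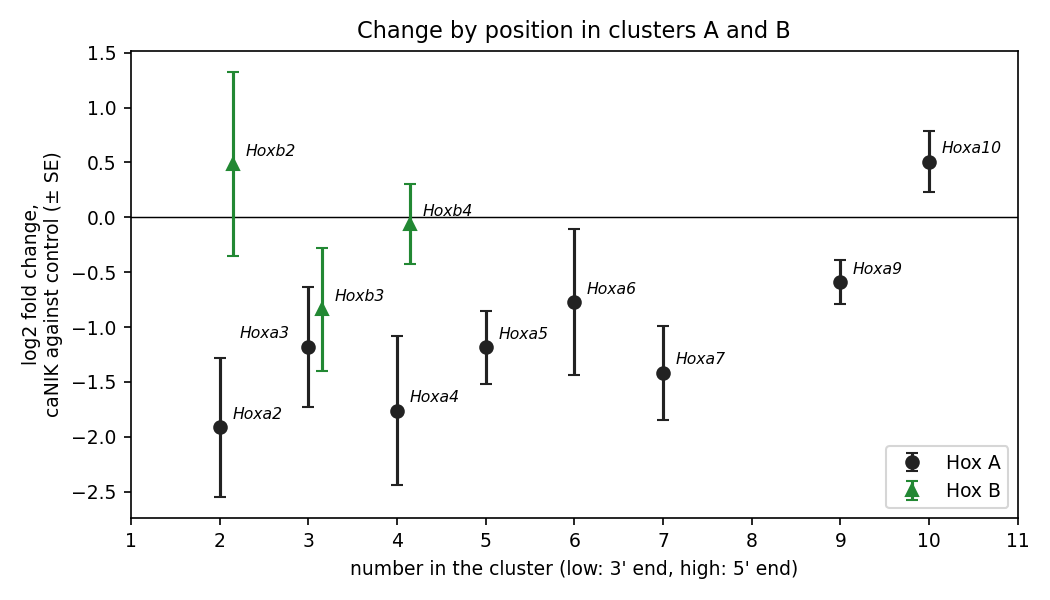
Log2 fold change of caNIK against control, with its standard error, against the number of the gene in its cluster, for the tested genes of Hox A (black circles) and Hox B (green triangles, moved slightly to the right). Hox A values run from -1.92 at Hoxa2 to 0.51 at Hoxa10, and Hox B values lie between -0.84 and 0.49.

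In cluster B none of the 3 tested genes passed in edgeR or DESeq2 over all libraries, also at an unadjusted p under 0.05. Hoxb4, known for expanding stem cells when overexpressed, had 8.50 and 8.39 CPM in control and 10 and 6.17 CPM in caNIK, a log2 fold change of -0.06 ± 0.37 (edgeR adjusted p = 0.93). Hoxb3 had 6.74 and 6.30 CPM in control and 5.42 and 1.88 CPM in caNIK (-0.84 ± 0.56; adjusted p = 0.34). Hoxb2 had 19 and 32 reads in control and 51 and 12 in caNIK (0.49 ± 0.84; adjusted p = 0.73), and its direction followed caNIK replicate 1, being -1.01 without that library. Of Hoxb3's annotated exon bases 52.9% are shared with the antisense transcript Hoxb3os, and 27.3% of those of Hoxb2, and no source used here says whether the counting used strand; without it, reads of both strands cannot be told apart there. The same holds for 20.4% of the exon bases of Hoxa7, which are shared with the antisense transcript Hoxaas3. The median of the 3 tested genes was -0.06.

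The other 7 Hox B genes were too low for the test, with 2 to 24 reads over the 4 libraries. Hoxb5, which marks long-term stem cells in mouse bone marrow, had 4 and 20 reads in control and 0 in both caNIK libraries, at least 7.37-fold lower when 3 counts are allowed over the caNIK group; it did not pass where genes with any read were tested (edgeR adjusted p = 0.066). Without control replicate 1, Hoxb5 was called lower (log2 fold change -7.18; edgeR adjusted p = 0.023), and it was not without either caNIK library (0.19 and 0.23). Hoxb7 had 16 reads, all in control replicate 1, and was called lower without control replicate 2 (-7.03; edgeR adjusted p = 0.034), but not without either caNIK library (0.37 and 0.40). Each of these genes entered such fits only through the control library that holds most or all of its reads, so these calls carry no support. Hoxb6 had 7 reads in control replicate 2 and 5 in caNIK replicate 2, Hoxb9 had 3 to 9 in each library, Hoxb8 had 5 in all, Hoxb13 had 3 and Hoxb1 had 2. Central genes of cluster B, numbers 5 to 8, together held 1.09 and 1.15 CPM in control and 0.0537 and 0.385 CPM in caNIK. Such bounds, and the intervals given for cluster C, reflect counting error and no other spread.

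Cluster C was nearly silent in control and detected at a low level in caNIK HSPC. Its 9 genes together had 13 and 5 reads in the control libraries and 97 and 74 in the caNIK libraries, 0.674 and 0.213 against 5.20 and 3.57 CPM. Hoxc6, which is best known from trunk and limb patterning, had 0 and 1 reads in control and 48 and 46 in caNIK. It was the 1 Hox gene called higher (log2 fold change 6.36 ± 1.04; edgeR adjusted p = 0.0073), with a ratio of 102 (exact 95% counting interval 17.9 to 4074). It passed the filter on low counts through the caNIK libraries alone, where it is high, so its p-values are no support beyond the reads themselves. It passed in each alternative that kept all libraries, and its log2 fold change ran from 5.61 to 8.55 over all 10. Its caNIK level of 2.40 ± 0.254 CPM was small beside the 77.5 ± 13.5 CPM of Hoxa9; per kilobase these were 0.995 and 13.9 CPM.

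Hoxc4, the most anterior gene of the cluster, had no control read and 31 and 10 reads in caNIK, at least 14.8-fold higher against 3 counts over the control group. It was too low for the main filter and passed where genes with any read were tested (edgeR adjusted p = 0.011); with a library left out it passed without either control (0.026 and 0.035) and not without caNIK replicate 2 (0.065). With no control read, it entered each of these fits only through the caNIK libraries, where it is high, so these p-values are no support beyond the reads themselves. Hoxc5, between them, had 9 and 1 caNIK reads and none in control. Hoxc9 had 0 and 1 reads in control and 4 and 14 in caNIK, a ratio of 19.5 (exact 95% counting interval 3.09 to 814). Hoxc8 had 4 and 1 against 5 and 3, and Hoxc10 went the other way, with 9 and 2 reads in control and 0 in both caNIK libraries, at least 3.38-fold lower. Hoxc5 and Hoxc10 share 166 annotated exon bases, so their few reads cannot be fully told apart.

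Sums of several other marker lists were, like cluster C, higher in both caNIK libraries than in either control. Summed NK cell markers lay at 1.04 and 0.767 CPM in control and 25.9 and 5.44 CPM in caNIK (1 of 3 higher). Mast cell, erythroid and megakaryocyte sums were also higher, as given above, with the mast cell gene Fcer1a at 0 and 2 reads in control. The stromal genes Col1a1 and Col1a2 had 39 and 73 reads in control replicate 1 and 1496 and 854 in control replicate 2. They had 1961 and 1302 reads in caNIK replicate 1 and 1300 and 890 in caNIK replicate 2. Hoxc6 had 0 and 1 reads in control and 48 and 46 in caNIK. Of the other stromal and endothelial markers, Pecam1, Cdh5 and Cxcl12 had negative log2 fold changes (-0.72, -0.86 and -0.46). Kdr and Pdgfra had positive ones (0.22 and 0.38), and no marker of this list passed. The part of these cells in the Hox C reads was not tested.

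Cluster D had no read in control and 9 and 3 reads in caNIK. Of these, 6 and 1 were on Hoxd4, 2 and 0 on Hoxd3, 1 and 0 on Hoxd1 and 0 and 2 on Hoxd13, so no gene of the cluster could be tested. Hoxd4 was at least 2.53-fold higher against 3 counts over the control group. Hoxd3 and Hoxd4 share 388 annotated exon bases. For a gene with no control read, the level in control was not detectable at this depth.

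**Figure D5:**
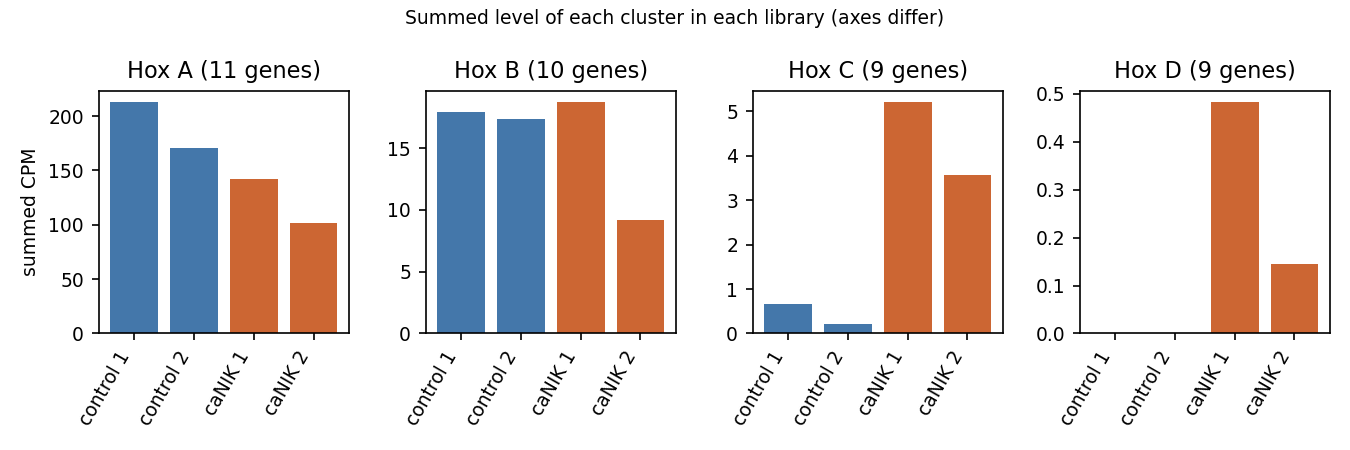
Summed CPM of all genes of clusters A to D in each library, control in blue and caNIK in orange, with a separate axis from 0 for each cluster. Cluster A is lower in both caNIK libraries (142 and 102 against 213 and 171 CPM), cluster B in caNIK replicate 2 only, and clusters C and D are higher in both at levels below 6 CPM.

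Among the other transcripts of the clusters, only Mir196b reached 10 reads, with 13 in control replicate 1 and none elsewhere. Its hairpin lies within annotated Hoxa9 exons, so its reads and those of Hoxa9 cannot be told apart, and such counts are no measure of the mature miRNA. Hotair, Hottip, Hoxa11os, Hoxd3os1, Mir10a, Mir10b, Mir196a-2 and Mir615 had 0 reads, and Mir196a-1 had 3. The mature miR-196 forms are shown because their seeds (bases 2 to 8, in capitals) are the same for the Hox A and the Hox B and C copies, and are known to match Hox messages (RefSeq, GRCm38.p6).
miR-196b-5p, cluster A: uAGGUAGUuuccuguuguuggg
miR-196a-5p, clusters B and C: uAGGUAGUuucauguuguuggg

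Of 10 tested partner homeodomain genes of the TALE class, 2 were higher, 1 lower and 7 did not pass, with a median of -0.15. These shares of 20% and 10% are near the 13.8% higher and 8.21% lower among all genes tested. Meis2, a MEIS family partner that HSPC express little, had 0 and 4 reads in control and 279 and 168 in caNIK (log2 fold change 6.88 ± 0.88; edgeR adjusted p = 0.0029). It passed the filter on low counts through the caNIK libraries alone, where it is high, so its p-value is no support beyond the reads themselves. The size of its fold change rests on 4 control reads. Meis3 rose from 16 and 11 to 111 and 59 reads (2.76 ± 0.66; adjusted p = 0.028; 0.15 without caNIK replicate 1), and 1 of its control libraries lay below the level the filter asks for. Pbx2 fell from 114 and 122 to 77.9 and 68.5 CPM (-0.69 ± 0.15; adjusted p = 0.022; 0.054 and 0.12 without control replicates 1 and 2). Meis1, the main MEIS gene of HSPC and chosen here after its values were seen, had 124 and 115 CPM in control and 94.4 and 58.3 CPM in caNIK (-0.64; adjusted p = 0.11). Like Hoxa9, it did not overlap between the groups and did not pass.

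Of 17 genes of MLL and other activating complexes, 3 were higher and 0 lower in edgeR (1 lower at an unadjusted p under 0.05, 0 in DESeq2), with a median of -0.05. The 17.6% higher is near the 13.8% among all genes tested. Mllt3, a reader of acetylated histones that keeps stem cell genes active, rose by 1.22 ± 0.15 on the log2 scale (edgeR adjusted p = 0.0021). The histone demethylase gene Kdm6a rose by 0.86 ± 0.18 (adjusted p = 0.017; 0.065 without control replicate 2), and Kmt2a, which encodes MLL itself, by 0.55 ± 0.15 (adjusted p = 0.041). Kmt2a did not pass with library totals (0.061), without control replicates 1 or 2 (0.35 and 0.17) or without caNIK replicate 1 (0.057). Of 17 Polycomb genes, 3 were higher and 0 lower in edgeR (3 lower at an unadjusted p under 0.05, 2 in DESeq2), with a median of 0.10, again 17.6% higher beside 13.8%. Phc3, a subunit of the PRC1 complex, rose by 1.77 ± 0.15 (adjusted p = 7e-04). Jarid2, which helps recruit PRC2, rose by 0.90 ± 0.18 (adjusted p = 0.015; 0.079 without control replicate 1). The PRC1 gene Cbx7 rose by 0.84 ± 0.19 (adjusted p = 0.022), and did not pass without control replicates 1 or 2 (0.074 and 0.083) or without caNIK replicate 1 (0.054).

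Among caudal and retinoid regulators, which set Hox expression in the embryo, 1 of 8 tested genes was higher and 1 lower (median 0.33), 12.5% each way beside 13.8% higher and 8.21% lower among all genes. The retinoic acid receptor gene Rara rose by 0.86 ± 0.17 (edgeR adjusted p = 0.015; 0.068 without control replicate 2), and its partner gene Rxrb fell by 0.79 on the log2 scale (SE 0.14; adjusted p = 0.010). Of 15 genes associated with HOXA9 and MEIS1 in blood cells and leukemia, 5 were lower and 4 higher (median -0.43), which is 33.3% and 26.7% beside 8.21% and 13.8% among all genes. Flt3, a cytokine receptor gene and a known HOXA9-MEIS1 target, had 11434 and 11086 reads in control and 2099 and 1210 in caNIK (-2.64 ± 0.32; adjusted p = 0.0024). Cd34, a progenitor surface gene, and Lmo2, a stem cell transcription factor gene, changed by -2.66 ± 0.28 and -1.32 ± 0.14 (adjusted p = 0.0013 for both). These 3 had the smallest p of the list, and all fell. The others past the threshold went both ways. Bcl2 and Erg changed by -2.23 and -1.33, and Id2, Cdk6, Trib2 and Pim1 by 2.92, 1.36, 1.30 and 0.55. Cd34 also stands in the stem cell marker list, so the lists are not separate evidence.

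Of 21 tested genes beside the clusters, 2 were higher, 1 lower and 18 did not pass, with a median of -0.01. Passing was not common among all genes either, at 22%. Evx1 and Evx2, homeobox genes at the posterior ends of clusters A and D, had no read. The genes that passed all lie near cluster B: Snx11, a sorting nexin gene, rose by 1.32 ± 0.23 (edgeR adjusted p = 0.0086), Nfe2l1, a stress-response transcription factor gene, by 0.76 ± 0.18 (adjusted p = 0.026), and the heterochromatin protein gene Cbx1 fell by 0.52 (SE 0.14; adjusted p = 0.045). Nfe2l1 did not pass without control replicates 1 or 2 (0.13 and 0.052), nor Cbx1 without control replicates 1 or 2 or caNIK replicate 2 (0.21, 0.22 and 0.077). Skap2, which lies beside the anterior end of cluster A, had a log2 fold change of -0.05 (adjusted p = 0.85).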

How the data were processed

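The authors deposited raw read counts by gene symbol, as whole numbers in a separate file per library (per the file headers). Tools listed in the submitters' processing notes are TopHat2 2.1.0, featureCounts 1.5.0, DESeq2 1.10.1 and FastQC, and the build is mm9; what each did is not stated. No source used here gives the annotation, the strand setting or the handling of multi-mapping reads.

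The test used edgeR 4.0.16 in R 4.3.3: filterByExpr by group (12 Hox genes and 14191 genes kept), TMM scaling, and a two-sided quasi-likelihood F test (glmQLFit, glmQLFTest) of caNIK against control over all genes, with Benjamini-Hochberg adjustment and a threshold of 0.05. CPM is TMM-normalised, and errors are SD over n = 2 libraries or SE of the log2 fold change. Exon lengths and shared exon bases come from GENCODE M21 (GRCm38), a build other than mm9, and promoters and miRNAs from RefSeq, so lengths may differ from those counted. A gene without a read in a group was set to 3 counts over that group. Alternatives were DESeq2 1.42.0, other scalings and filters, the replicate number as a block and each library left out. All Hox genes but 1, whose own values are not reported here, were described, and from each further list the 3 smallest p past the threshold. Members and lists were chosen with earlier results of these data known. Set tests were not run.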

Additional observations from a re-analysis of the deposited data

How the results depend on the processing

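Among the 10 alternatives, Hoxc6 passed in each that kept all libraries, and Hoxa5 in all of these but library totals. In these, between 3104 and 4260 genes passed, against 3129 in the main analysis. Hoxc6 entered each fit through the caNIK libraries, where it is high, so its passes are no support beyond its reads. Hox genes called lower numbered 1 in the main analysis, 4 with DESeq2, 4 where genes with at least 1 read were tested (30 Hox genes), 0 with library totals, and 0 to 4 with a library left out; Hox genes called higher numbered 1, then 2 with at least 1 read, and 1 to 2 with a library left out. No label says that a replicate number marks a shared animal or day. With the replicate number as a block, 4 Hox genes were lower (Hoxa2, Hoxa5, Hoxa7 and Hoxa9). Deviations of replicate 1 from replicate 2 correlated at 0.27 between the groups across genes. The number of all genes called lower moved as well. It was 1165 in the main analysis, 1470 with DESeq2, 1475 with at least 1 read, 1330 with library totals and 1766 with the block. With a library left out, 16 Hox genes were tested in place of 12, and medians of the log2 fold change, which take in the added genes, were -1.55 to -0.59 for cluster A, -1.40 to -0.29 for cluster B, 5.42 to 7.39 for cluster C, -1.65 to -0.028 for anterior, -1.90 to -0.90 for central and -0.18 to 0.78 for posterior genes. Over the 12 genes alone, an alternative chosen after seeing the data, they were -1.55 to -0.74 for cluster A, -1.01 (without caNIK replicate 1) to 0.23 (without caNIK replicate 2) for cluster B, 5.61 (without control replicate 1) to 8.55 (without control replicate 2) for cluster C, -1.65 to -0.44 for anterior, -1.37 (without caNIK replicate 1) to -0.69 (without caNIK replicate 2) for central and -0.25 to 0.18 for posterior genes, the last positive without control replicate 1 (0.18) and without caNIK replicate 2 (0.062). With at least 1 read, which adds genes of few reads, they were 4.72 for cluster C, 0.44 for anterior, -0.54 for central and 0.23 for posterior genes, and cluster C stood at 6.70 with DESeq2. The log2 fold change of Hoxb2 ran from -1.01 (without caNIK replicate 1) to 1.20, and that of Hoxb4 from -0.45 to 0.23 (without caNIK replicate 2), and neither passed. Where an arm held 1 library, that library was assumed to vary like the other group. Depth limits the 27 Hox genes below the filter, for which 1 CPM is 18.6 to 23.5 reads.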

Other observations

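Several Hox genes of low level had their reads in 1 library of a group. In control replicate 1, Hoxb7 had 16 reads, Hoxb13 had 3 and Mir196b had 13, and none of them had a read in the other 3 libraries; Hoxc10 had 9 reads there and 2 in control replicate 2. The caudal homeobox genes Cdx2 and Cdx1 had 81 and 17 reads in control replicate 1, against 15 and 2 in control replicate 2. Control replicate 2 held 20 of the 24 Hoxb5 reads and 7 of the 12 Hoxb6 reads. In caNIK, replicate 1 held 31 of the 41 Hoxc4 reads, 9 of 10 Hoxc5 reads and all 6 Hoxa11 reads, whereas 14 of the 18 caNIK reads of Hoxc9 were in replicate 2 and the Hoxc6 reads were spread evenly, at 48 and 46. These values were picked after they were seen, and no test was made of them.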
